A study of Mus musculus with 5 samples.

Results

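Transcripts of 10 genes that build the first epithelium of the embryo were followed in 5 RNA-seq libraries from nuclear transfer embryos of the mouse at the 4-cell stage, among the 22026 gene symbols in the files. The genes were chosen by symbol, and all 10 were found: the type II keratins Krt7 and Krt8, the type I keratins Krt18 and Krt19, the desmosomal cadherins Dsg2 and Dsc2, the desmosomal plaque genes Jup, Pkp2 and Dsp, and the E-cadherin gene Cdh1. In nuclear transfer an enucleated oocyte receives the nucleus of a donor cell, and the series title asks what maternal H3.3, a histone H3 variant deposited outside DNA replication, does in the reprogramming that follows. All embryos were of the B6D2F1 strain, and total RNA was sequenced. Each group was 1 library: embryos with a knockdown of H3.3 that were also given H3.3 mRNA, knockdown embryos labelled as given H3.2 mRNA (the H3 form used in replication), embryos with the H3.3 knockdown alone, embryos treated with luciferase, and untreated embryos. The title of the H3.2 mRNA library names H3.2 mRNA while its treatment tag names H3.3 mRNA, and the title was followed. The H3.3 mRNA, knockdown and untreated libraries are labelled NT, and the H3.2 mRNA and luciferase libraries SCNT. The donor cell, the knockdown reagent and the number of embryos pooled are not given in the sources used here.

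Keratins assemble only as pairs of a type II and a type I chain, and Krt8 with Krt18 is the pair that simple epithelia make first. Desmosomes tie these filaments to the cell border: the desmogleins and desmocollins bind the neighbouring cell, plakoglobin (Jup) and plakophilins bind their tails, and desmoplakin (Dsp) links the plaque to keratin. E-cadherin holds blastomeres together when the mouse embryo compacts, and in the blastocyst many of these genes are known from the trophectoderm, its outer epithelium.

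Levels are in FPKM, which divides a gene's fragments by its transcript length and by the library's mapped total. Comparisons between genes are approximate, since a shift with transcript length remained between the knockdown and luciferase libraries, as given below. The sequencing depth is unknown, and an exact 0 is described as listed at 0. No group had a replicate, so no difference has an error or a p-value. The call for a higher or lower gene was 4-fold or more, which is 2 on the log2(FPKM + 1) scale, and a fold on that scale understates the change of low genes. The background is the share that passed the same fold among the 13144 genes averaging 1 FPKM or more. These RNA values come from whole embryos, where fewer cells of a kind and less RNA per cell cannot be told apart.

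The libraries were checked first. The summed level of H3f3a and H3f3b, which both encode H3.3, was 467 FPKM with H3.3 mRNA, 420 FPKM with H3.2 mRNA and 664 FPKM in the knockdown, against 5734 FPKM in the luciferase and 5266 FPKM in the untreated library. The library given H3.3 mRNA thus showed no more of these transcripts than the knockdown. Of 14 oocyte and early embryo markers, 12 to 14 were above 0 in each library, and Dppa3 lay between 4818 and 19535 FPKM. Of these markers, 13 averaged 1 FPKM or more. With luciferase 7 were at least 4-fold lower than in untreated embryos, beside 13.4% of all genes, and 1 was higher, beside 23.5%. In the knockdown 5 were higher than with luciferase, beside 9.74%, and 1 was lower, beside 18.9%. Against untreated embryos 4 were lower with H3.3 mRNA, 6 with H3.2 mRNA and 2 in the knockdown, beside 13.8%, 12.7% and 15.6%. In each of these 1 was higher, beside 20.6%, 24.1% and 16.8%. Against luciferase 4 were higher with each mRNA, beside 8.7% and 10.4%, and 1 and 3 were lower, beside 12.5% and 9.84%. Gdf9, an oocyte growth factor gene, stood at 550.2 FPKM in the knockdown, against 81.2 FPKM in the luciferase and 1332 FPKM in the untreated library. Zp1, Zp2 and Oosp1 stood at 133, 55.3 and 118 FPKM in the knockdown. They stood at 14.7, 34.6 and a listed 0 with luciferase, and at 99.6, 8.82 and 350 FPKM in untreated embryos. Nanog was listed at 0 in the knockdown, against 52.1 and 21.8 FPKM in the luciferase and untreated libraries. It was the 1 marker at least 4-fold lower than each control there, beside 6.35% of all genes, and 0 were higher, beside 4.98%. The part of these marker differences in the values of the 10 genes was not tested. The share of all genes above 0 FPKM was 51.2% with H3.3 mRNA, 55.7% with H3.2 mRNA, 47.7% in the knockdown, 55.8% in the luciferase and 47.4% in the untreated library.

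Krt8 and Krt18 were lower in each of the 3 libraries with the knockdown than in either control. Krt8 stood at 22.5 FPKM with H3.3 mRNA and 44.8 FPKM with H3.2 mRNA, was listed at 0 in the knockdown, and stood at 836 FPKM in the luciferase and 184 FPKM in the untreated library. Krt18 was listed at 0 with H3.3 mRNA and stood at 13.1 FPKM with H3.2 mRNA and 48.7 FPKM in the knockdown, against 435 FPKM in the luciferase and 290.4 FPKM in the untreated library. For both genes the 3 knockdown libraries lay below both controls with no overlap. Krt8 was higher than 64.2% of all genes in the H3.3 mRNA and 69.9% in the H3.2 mRNA library, against 96.1% in the luciferase and 83.2% in the untreated library. Krt18 was higher than 58.4% of all genes with H3.2 mRNA and 73.0% in the knockdown, against 92.5% in the luciferase and 87.7% in the untreated library.

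Krt7, the other type II keratin, had another order. It was listed at 0 in both mRNA libraries and stood at 103 FPKM in the knockdown, 34.5 FPKM in the luciferase and 43.1 FPKM in the untreated library. The knockdown was thus its highest library, by 1.55 on the log2 scale over the luciferase and 1.24 over the untreated library, both under the 4-fold call. Krt19, a type I keratin that lacks most of the tail domain, was listed at 0 in all 5 libraries.

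The partner chains were not matched in level. With Krt8 listed at 0, the knockdown library held type I Krt18 beside type II Krt7. The H3.3 mRNA library held Krt8 with neither Krt18 nor Krt19, the type I keratins among the genes followed. Type I keratins outside these genes were present: Krt28 stood at 44.1 FPKM with H3.3 mRNA, and Krt12 at 17.4 FPKM in the knockdown. The ratio of Krt8 to Krt18 was 3.42 with H3.2 mRNA, 1.92 in the luciferase and 0.632 in the untreated library. Krt8 and Krt18 together summed to 22.5 FPKM with H3.3 mRNA, 57.95 FPKM with H3.2 mRNA and 48.7 FPKM in the knockdown, against 1270.4 FPKM in the luciferase and 474 FPKM in the untreated library. They made up 29.0% of all keratin FPKM with H3.3 mRNA, 91.7% with H3.2 mRNA and 28.8% in the knockdown, against 95.3% in the luciferase and 76.0% in the untreated library. Krt8 has an annotated pseudogene, Krt8-ps, so its division of reads is uncertain.

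Krt8 and Krt18 are neighbours on chromosome 15 although they belong to different keratin types, and Krt7 lies on the same chromosome. In the library with the knockdown alone, Krt8 and Krt18 lay below both controls and Krt7 above both, under the 4-fold call for Krt7. In both mRNA libraries all 3 lay below both controls. The stretches before the start sites of these genes are shown for the contrast in the knockdown library. They are the 250 bases before each start from RefSeq on the GRCm38.p6 build, at chr15:102004343-102004592 (minus strand) for Krt8, chr15:102027966-102028215 (plus strand) for Krt18 and chr15:101412153-101412402 (plus strand) for Krt7, with CAGGTG or its reverse complement and GGGCGG or its reverse complement in capitals.
Krt8: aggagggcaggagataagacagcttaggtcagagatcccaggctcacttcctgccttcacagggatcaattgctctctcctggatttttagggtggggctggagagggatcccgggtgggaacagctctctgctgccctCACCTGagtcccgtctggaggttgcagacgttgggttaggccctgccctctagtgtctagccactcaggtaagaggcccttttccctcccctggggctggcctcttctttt
Krt18: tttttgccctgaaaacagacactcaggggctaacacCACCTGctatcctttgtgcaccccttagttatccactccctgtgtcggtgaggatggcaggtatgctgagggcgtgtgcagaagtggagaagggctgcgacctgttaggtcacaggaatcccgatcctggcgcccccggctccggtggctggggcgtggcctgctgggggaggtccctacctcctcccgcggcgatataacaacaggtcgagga
Krt7: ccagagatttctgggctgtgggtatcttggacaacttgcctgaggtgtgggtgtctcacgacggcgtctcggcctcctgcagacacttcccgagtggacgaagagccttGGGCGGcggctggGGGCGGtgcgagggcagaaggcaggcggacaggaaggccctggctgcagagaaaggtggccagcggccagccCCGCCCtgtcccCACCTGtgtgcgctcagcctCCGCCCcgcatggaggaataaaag
CAGGTG, the E-box that repressors of the SNAI and ZEB families bind, occurred once in each window, 111, 214 and 44 bases before the starts of Krt8, Krt18 and Krt7, and 17.2% of 32851 windows of the same length held it on either strand. GGGCGG, the GC box of SP and KLF factors, occurred at 4 places before Krt7 and at none before Krt8 or Krt18, and 32.7% of the windows held it. The TATA box TATAAA, in 12.4% of the windows, the CCAAT box CCAAT, in 33.8%, the AP-1 site TGANTCA, in 6.75%, and the TEAD site GGAATG, in 12.6%, were in none of the 3. The GATA site AGATAA, in 9.99% of the windows, occurred before Krt8, and the TFAP2 site GCCNNNGGC, in 13.7%, at 1 place before Krt18 and 2 places before Krt7. The same windows of Jup and Dsp held 2 and 4 GC boxes and no CAGGTG. Genes that neighbour the pair had other values: Krt78, before Krt8, was listed at 0 in every library. Eif4b, a translation initiation factor gene after Krt18, stood at 1103 FPKM with H3.3 mRNA, 421 FPKM with H3.2 mRNA and 227 FPKM in the knockdown, against 680.5 FPKM in the luciferase and 570 FPKM in the untreated library.

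**Figure D1:**
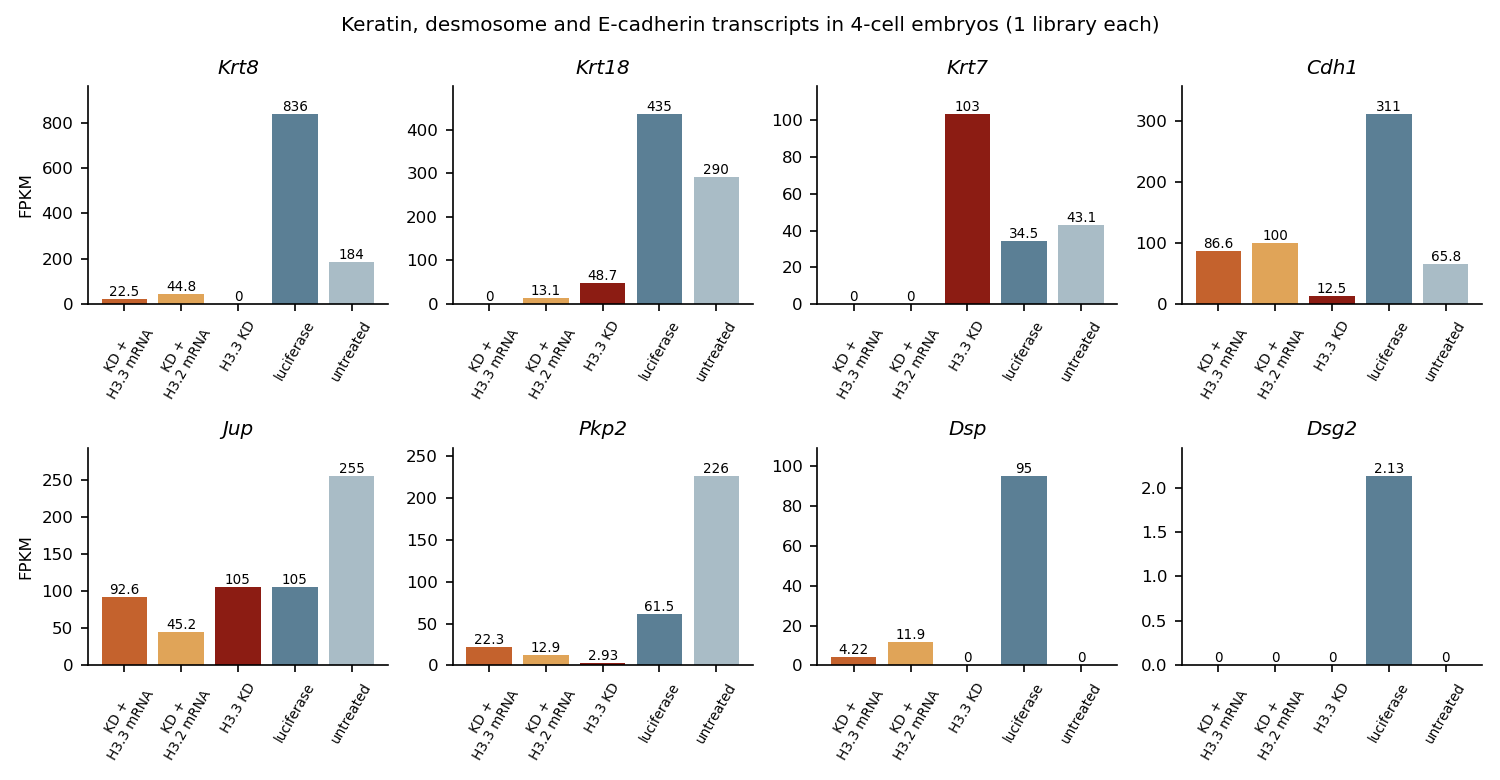
FPKM of 8 genes in the 5 libraries, 1 bar per library and 1 panel per gene, each with its own axis; KD is the H3.3 knockdown, and Krt19 and Dsc2, listed at 0 throughout, are not drawn. Krt8, Krt18 and Pkp2 are higher in both controls than in any knockdown library, while Krt7 peaks in the knockdown at 103 FPKM.

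Of the desmosome genes, the plaque components were detected and the cadherins hardly at all. Dsc2 was listed at 0 in all 5 libraries, and Dsg2 was above 0 in the luciferase library alone, at 2.13 FPKM. Jup encodes plakoglobin, which also serves adherens junctions. It stood at 92.6 FPKM with H3.3 mRNA, 45.2 FPKM with H3.2 mRNA and 105.06 FPKM in the knockdown, against 105.35 FPKM in the luciferase and 254.92 FPKM in the untreated library. Its level in the knockdown was thus that of the luciferase library, and the untreated library stood above the other libraries.

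Plakophilin 2 and desmoplakin differed more between the libraries. Pkp2 stood at 22.3 FPKM with H3.3 mRNA, 12.9 FPKM with H3.2 mRNA and 2.93 FPKM in the knockdown, against 61.5 FPKM in the luciferase and 226 FPKM in the untreated library. The knockdown was lower by -3.99 on the log2 scale against the luciferase and -5.85 against the untreated library. Dsp stood at 4.22 FPKM with H3.3 mRNA and 11.9 FPKM with H3.2 mRNA, was listed at 0 in the knockdown, and stood at 95.02 FPKM in the luciferase library, with a listed 0 in untreated embryos. For Dsp the controls thus enclosed the other libraries, and the untreated library was as low as the knockdown. Jup made up 77.8% of the summed FPKM of the 5 desmosome genes with H3.3 mRNA, 64.6% with H3.2 mRNA and 97.3% in the knockdown, against 39.9% in the luciferase and 53.0% in the untreated library.

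E-cadherin was lowest in the knockdown library and lay within the range of the controls in both mRNA libraries. Cdh1 stood at 86.6 FPKM with H3.3 mRNA, 100.38 FPKM with H3.2 mRNA and 12.5 FPKM in the knockdown, against 311 FPKM in the luciferase and 65.8 FPKM in the untreated library. The knockdown was 24.9-fold lower than the luciferase library and 5.27-fold lower than the untreated one. The call against the untreated library ended with a pseudocount of 10 (a log2 difference of -1.75) and with quantile normalization (-1.98). Cdh3, the P-cadherin gene next to Cdh1 on chromosome 8, stood at 57.1 FPKM with H3.3 mRNA and 3.37 FPKM with H3.2 mRNA, was listed at 0 in the knockdown, and stood at 5.83 FPKM in the luciferase and 61.9 FPKM in the untreated library.

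Set against the luciferase library, the knockdown was at least 4-fold lower at 5 of the 10 genes, Krt8, Krt18, Pkp2, Dsp and Cdh1, and higher at 0. Of all genes, 18.9% were lower and 9.74% higher by that fold. Against the untreated library the knockdown was lower at 4 of the 10, Krt8, Krt18, Pkp2 and Cdh1, beside 15.6% of all genes, and higher at 0, beside 16.8%. These 4 passed the fold against each control, where the background was 6.35%, and 0 were higher than each, where it was 4.98%. The knockdown library enters both comparisons. A listed 0 enters 2 of the 5 calls against the luciferase library (Krt8 and Dsp) and 1 of the 4 against the untreated library (Krt8). The median difference over the 10 genes was -2.39 against the luciferase library, beside -0.12 over all genes, and -0.64 against the untreated library, beside 0.00. The 10 include 3 genes under the filter, while all genes are those past it. Krt8 was listed at 0 in the knockdown with at least 180 FPKM in each control, as was 1 other gene, Grtp1, among the 2605 genes at that level, a limit chosen after the values were seen and close to the untreated value of Krt8. At 100 FPKM or more in each control, 9 of 3642 genes were listed at 0 in the knockdown.

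**Figure D2:**
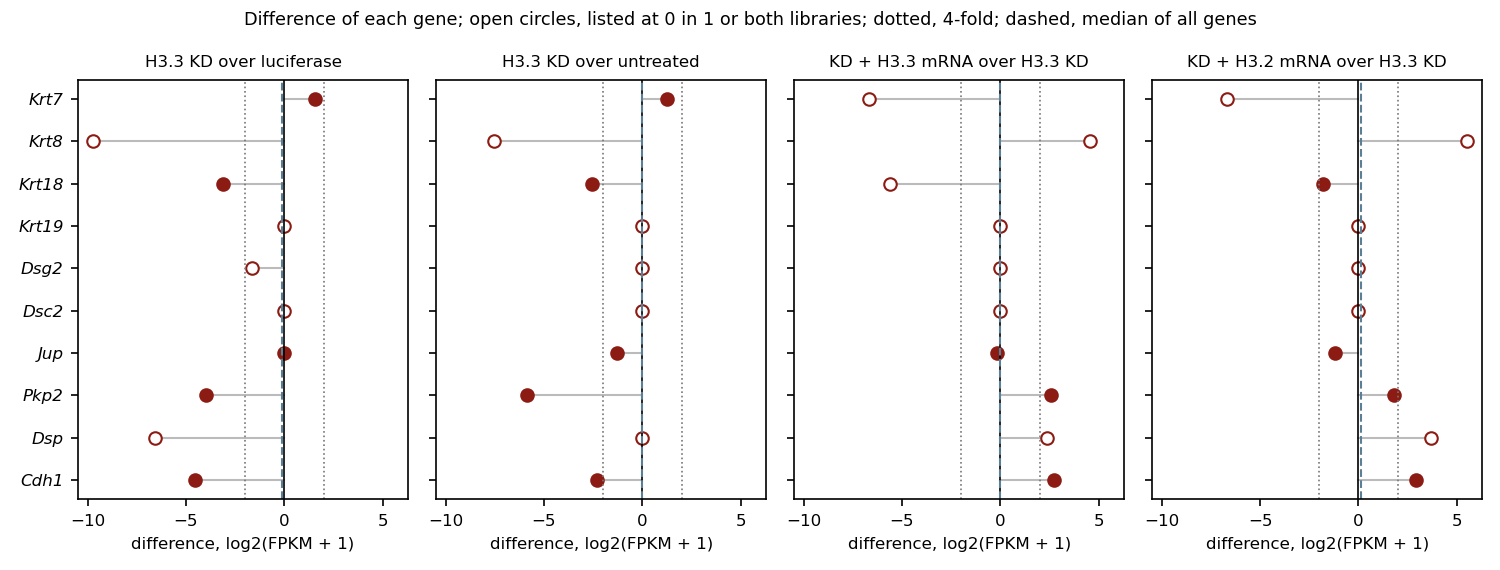
Difference of each of the 10 genes on the log2(FPKM + 1) scale in 4 comparisons, 1 point per gene; open points are listed at 0 in 1 or both libraries, dotted lines mark 4-fold, and the dashed line is the median of all genes. Krt8, Krt18, Pkp2 and Cdh1 lie left of the 4-fold line against both controls, and Krt8, Dsp and Cdh1 lie right of it in both mRNA libraries.

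The background was also taken by transcript length and level. By the longest GENCODE M21 transcript, found for 13006 of the genes, the median difference of the knockdown from the luciferase library was 0.40 for genes under 2000 bases, -0.25 from 2000 to 5000 bases and -0.80 from 5000 bases up. Against the untreated library the medians were 0, -0.04 and 0. The share lower than each control was 4.31%, 6.95% and 7.36% in these classes. Krt8 and Krt18, at 1958 and 1437 bases, belong to the short class, Pkp2 and Cdh1, at 2931 and 4430 bases, to the middle one, and Dsp, at 9592 bases, to the long one. The share was 5.90% among genes averaging 20 FPKM or more and 2.47% at 100 FPKM or more. The part of length in the values of Dsp and Cdh1 was not tested.

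The knockdown libraries that received an mRNA were set against the knockdown. With H3.3 mRNA, 4 of the 10 genes were at least 4-fold higher (Krt8, Pkp2, Dsp and Cdh1; background 16.4%) and 2 were lower (Krt7 and Krt18; background 10.1%). With H3.2 mRNA, 3 were higher (Krt8, Dsp and Cdh1; background 19.5%) and 1 was lower (Krt7; background 9.11%). The knockdown library serves both comparisons, and where it lies low for a gene both differences are positive through it. Krt8 and Dsp are listed at 0 in it, so no fold is given. Cdh1 was 6.94-fold higher with H3.3 mRNA and 8.04-fold higher with H3.2 mRNA, and Pkp2 7.60-fold and 4.40-fold higher, the last with a log2 difference of 1.82 that missed the call (2.10 with a pseudocount of 0.1 and 2.02 with upper-quartile scaling, past it). With quantile normalization the differences of Pkp2 and Dsp with H3.3 mRNA were 1.71 and 1.95, under the call. That of Dsp was 1.25 after rescaling to a common sum. With H3.2 mRNA the Dsp call ended with a pseudocount of 10 (1.13), and Krt18 was lower with quantile normalization (-2.42).

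Both mRNA libraries lay below the controls for 3 keratins, among them Krt7, which the knockdown alone held above both. With H3.3 mRNA, Krt7, Krt8 and Krt18 were at least 4-fold lower than each control, where the background was 3.77%, and with H3.2 mRNA these 3 and Pkp2 were lower, where it was 2.82%. No gene of the 10 was at least 4-fold higher than each control in either, beside 4.82% and 6.19% of all genes. Within the SCNT label, 5 of 10 genes, Krt7, Krt8, Krt18, Pkp2 and Dsp, were lower with H3.2 mRNA than with luciferase, beside 9.84% of all genes, and 0 were higher, beside 10.4%. Within the NT label, the knockdown was lower than the untreated library at the 4 genes given above. There the H3.3 mRNA library was lower at Krt7, Krt8, Krt18 and Pkp2, beside 13.8% of all genes, and higher at Dsp, beside 20.6%. Across the labels, the H3.3 mRNA library lay below luciferase at Krt7, Krt8, Krt18 and Dsp, beside 12.5% of all genes, and above it at 0, beside 8.7%. The H3.2 mRNA library lay below the untreated one at Krt7, Krt8, Krt18, Jup and Pkp2, beside 12.7% of all genes, and above it at Dsp, beside 24.1%. Krt8, Krt18 and Pkp2 were lower in the comparisons within each label, and the part of the label in these values was not tested. In all, 4 of 10 genes, Krt8, Krt18, Jup and Pkp2, had every knockdown library below both controls, beside 8.83% of all genes, and 0 had every one above, beside 7.14%. For Jup the gap was that of 105.06 and 105.35 FPKM.

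**Figure D3:**
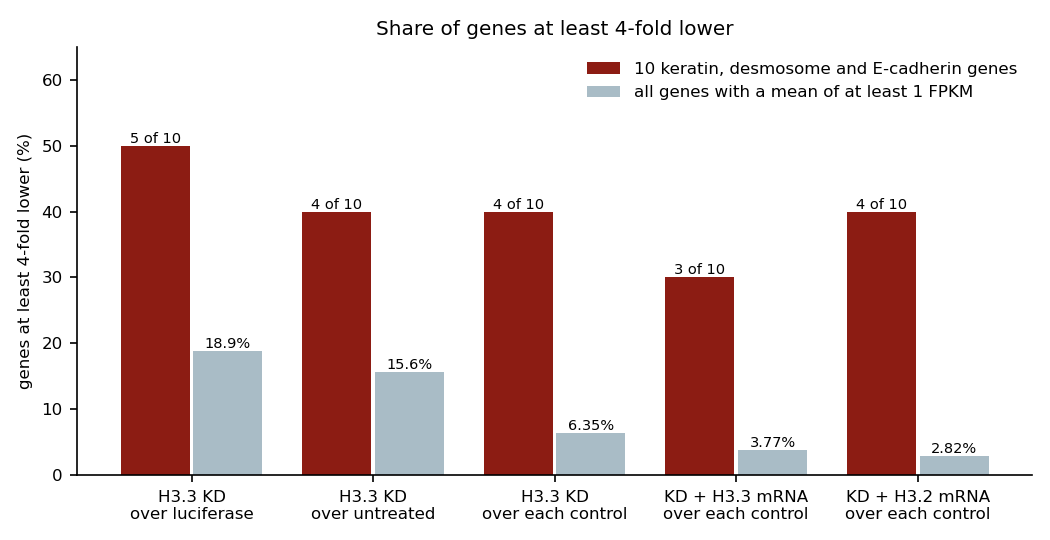
Share of genes at least 4-fold lower, in percent, for the 10 keratin, desmosome and E-cadherin genes (dark bars, with the count) and for all genes averaging 1 FPKM or more (light bars), in 5 comparisons that share libraries. Of the 10 genes, 3 to 5 were lower in each, beside 2.82% to 18.9% of all genes; 3 of the 10 have a mean under 1 FPKM and were counted too.

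The library with H3.3 mRNA differed from the one with H3.2 mRNA by at least 4-fold at 1 of the 10 genes, Krt18, which was lower (background 12.6%), and at 0 in the other direction (background 8.38%). The difference of Krt18 rests on a listed 0 against 13.1 FPKM. Krt8 stood at 22.5 and 44.8 FPKM and Cdh1 at 86.6 and 100.38 FPKM in these 2 libraries.

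The controls themselves stood apart. By 4-fold or more, 3 of the 10 genes, Krt8, Dsp and Cdh1, were higher with luciferase than in untreated embryos, beside 23.5% of all genes, and 0 were lower, beside 13.4%. Krt8 was 4.55-fold and Cdh1 4.72-fold higher, while Jup and Pkp2 were 2.42-fold and 3.68-fold lower, under the call for Jup and Pkp2. Krt18 and Krt7 lay closer, with log2 differences of 0.58 and -0.32. The distance of the knockdown from a control therefore depended on the control taken.

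Other parts of the same structures were examined from lists of related genes. Of 48 further keratin symbols, 41 were listed at 0 in every library, and 5 averaged 1 FPKM or more. The highest was Krt10, an epidermal keratin, at 93.3 FPKM in the untreated library and listed at 0 in the others. Krt28 stood at 44.1 FPKM with H3.3 mRNA and 12.9 FPKM with luciferase and at a listed 0 elsewhere, Krt12, a corneal keratin, at 17.4 FPKM in the knockdown and 8.48 FPKM in the untreated library, and Krt84 at 11.1 FPKM or less. None of the further keratins was at least 4-fold lower or higher than each control in the knockdown, beside 6.35% and 4.98% of all genes. With 5 genes past the filter, 0 is near these shares.

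Of 12 further desmosome genes, 7 were listed at 0 in every library and 5 passed the filter. None of these 5 was at least 4-fold lower or higher than each control in the knockdown, beside 6.35% and 4.98% of all genes. With 5 genes, 0 is near these shares. Perp, a membrane protein of desmosomes, stood at 46.9 FPKM with H3.3 mRNA, 10.7 FPKM with H3.2 mRNA and 75.4 FPKM in the knockdown, against 265 FPKM in the luciferase and 174 FPKM in the untreated library, and its knockdown libraries all lay below the controls. Evpl, which encodes envoplakin, a relative of desmoplakin, stood at 12.03 FPKM in the knockdown, against 2.05 FPKM in the luciferase and 2.48 FPKM in the untreated library. Pkp3, another plakophilin, stood at 13.99 FPKM against 4.80 and 4.09 FPKM in the luciferase and untreated libraries. Ppl, the periplakin gene, was above 0 with H3.3 mRNA and in the luciferase library, at 3.84 and 7.90 FPKM.

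Of 13 adherens junction genes, 12 passed the filter, and in the knockdown 2 were at least 4-fold lower and 2 higher than each control, beside 6.35% and 4.98% of all genes. The lower ones were Cdh3 and Mllt4, which encodes the actin linker afadin and stood at 2.56 FPKM in the knockdown, against 64.5 FPKM in the luciferase and 35.4 FPKM in the untreated library. Mllt4 stood at 29.8 FPKM with H3.3 mRNA and 80.9 FPKM with H3.2 mRNA. The higher ones were Cdh2, the N-cadherin gene, at 51.3 FPKM in the knockdown, a listed 0 in the luciferase and 1.09 FPKM in the untreated library, and the nectin gene Pvrl3 at 54.25 FPKM in the knockdown, against 10.3 and 4.81 FPKM in the luciferase and untreated libraries. Cdh2 stood at 3.85 FPKM with H3.3 mRNA and 4.16 FPKM with H3.2 mRNA, so the knockdown library alone held more of it than of Cdh1.

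Of the catenins, which join cadherin tails to actin, Ctnna1 and Ctnnd1 were lowest in the knockdown, and beta-catenin (Ctnnb1) was not. Ctnna1 stood at 412 FPKM with H3.3 mRNA, 429.6 FPKM with H3.2 mRNA and 143.5 FPKM in the knockdown, against 768 FPKM in the luciferase and 531 FPKM in the untreated library. Ctnnd1, whose product binds the inner stretch of the cadherin tail, stood at 224 and 247 FPKM with H3.3 and H3.2 mRNA and 55.3 FPKM in the knockdown, against 339 and 108 FPKM in the luciferase and untreated libraries. Ctnnb1 stood at 262 FPKM in the knockdown, against 559 and 248 FPKM in the luciferase and untreated libraries. Over the 12 genes past the filter the median difference from the luciferase library was -1.16, beside -0.12 over all genes. From the untreated library it was -1.17, beside 0.

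**Figure D4:**
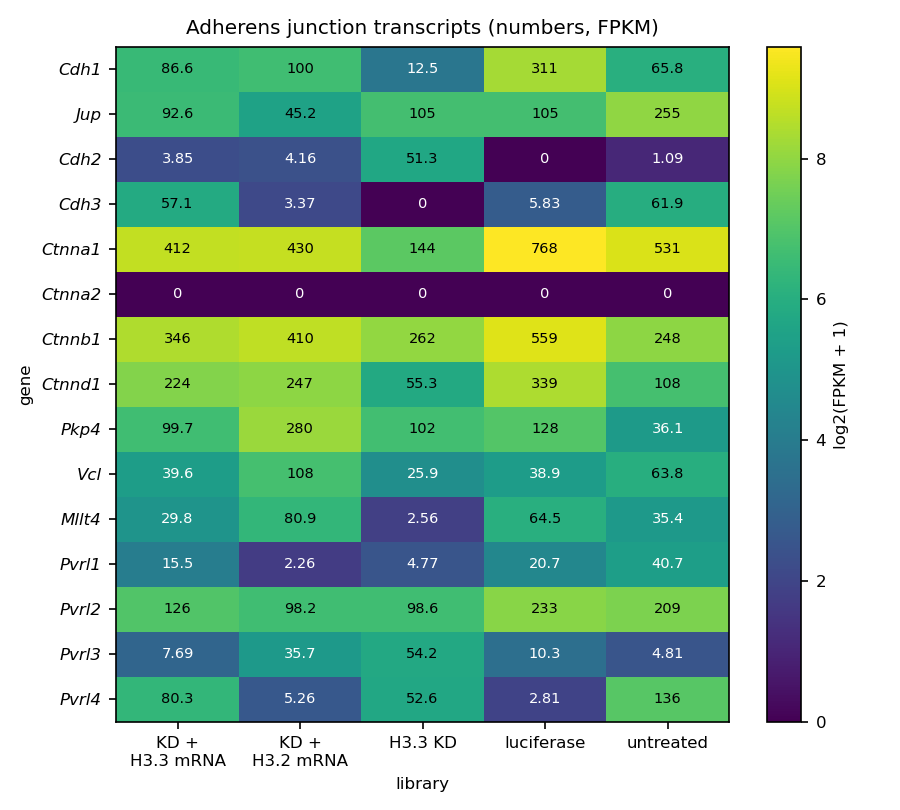
Levels of Cdh1, Jup and 13 adherens junction genes in the 5 libraries, coloured by log2(FPKM + 1), with the FPKM value in each cell; KD is the H3.3 knockdown. Cdh1, Cdh3, Ctnna1, Ctnnd1 and Mllt4 are lowest in the knockdown column, and Cdh2 and Pvrl3 are highest there.

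Further lists gave mixed counts for the knockdown against each control. Of 16 other intermediate filament genes, 11 passed the filter, with 2 lower and 1 higher, beside 6.35% and 4.98% of all genes. Vim, the vimentin gene of mesenchymal cells, was listed at 0 in the 3 knockdown libraries and stood at 21.75 FPKM in the luciferase library and 68.65 FPKM in the untreated one. Prph, the peripherin gene, was listed at 0 in the knockdown, against 4.81 and 20.4 FPKM in the luciferase and untreated libraries, and the lens filament gene Bfsp1 stood at 403 FPKM in the knockdown, against 5.77 and 30.2 FPKM. Nefh, a neurofilament gene, stood at 56.1 FPKM with H3.2 mRNA and was listed at 0 in the knockdown. Of 7 hemidesmosome and linker genes, all past the filter, 1 was lower and 0 were higher, beside 6.35% and 4.98% of all genes. The lower one was Itgb4, the beta chain of the hemidesmosome integrin. Itgb4 stood at 5.30 FPKM in the knockdown, against 68.4 FPKM in the luciferase and 86.1 FPKM in the untreated library. With H3.3 mRNA it stood at 187 FPKM. Plec, the plectin gene, which links keratin to that integrin, stood at 48.7 FPKM with H3.3 mRNA and was listed at 0 in the knockdown, against 0.36 and 31.98 FPKM in the luciferase and untreated libraries. Dst and Itga6 stood at 14.5 and 11.4 FPKM in the knockdown, against 39.6 and 17.8 FPKM with luciferase and 0.91 and 23.0 FPKM in untreated embryos.

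Of 20 compaction and polarity genes, 4 were lower than each control in the knockdown and 0 higher, beside 6.35% and 4.98% of all genes. Pard3 and Prkci, both of the apical polarity complex, stood at 8.77 and 4.30 FPKM in the knockdown, against 96.1 and 42.9 FPKM in the luciferase and 66.3 and 42 FPKM in the untreated library. Amot, an angiomotin of the Hippo pathway, was listed at 0 in the knockdown, against 12.1 and 53.9 FPKM in the luciferase and untreated libraries, and Rock2, a kinase that drives myosin contraction, stood at 2.53 FPKM, against 16.8 and 13.2 FPKM. Pard6a went the other way, at 231 FPKM in the knockdown, against 68.8 and 13.5 FPKM. Of 18 epithelial and trophectoderm regulators, 14 passed the filter, and 0 were higher than each control, beside 4.98% of all genes. Of the 14, 1, Ovol1, was lower than each control, a share near the 6.35% of all genes. It was listed at 0 in the knockdown against 76.85 FPKM and 7.41 FPKM in the luciferase and untreated libraries. Tcfap2c, a trophectoderm factor gene, stood at 80.2 FPKM in the knockdown, against 479 and 265 FPKM in the luciferase and untreated libraries. Grhl1 stood at 6.99 FPKM in the knockdown, against a listed 0 and 2.70 FPKM, and Wwtr1, a Hippo pathway coactivator gene, at 53.9 FPKM, against 135 and 1.33 FPKM. Cdx2, Elf5 and Eomes were listed at 0 in every library.

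Of 7 genes for repressors of E-cadherin, 5 passed the filter. None was at least 4-fold lower or higher than each control in the knockdown, beside 6.35% and 4.98% of all genes. With 5 genes, 0 is near these shares. Snai1 stood at 296 FPKM with H3.3 mRNA, 87.8 FPKM with H3.2 mRNA and 146 FPKM in the knockdown, against 58.05 FPKM in the luciferase library and 93.7 FPKM in the untreated one. Tcf3 stood at 47.9 FPKM in the knockdown, against 80.1 and 510.1 FPKM in the luciferase and untreated libraries, and Zeb1 and Twist1 were at 17.9 FPKM or less in every library.

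Markers of other cells were summed beside these results. Of 16 cumulus cell markers, 7 (Has2, Ptx3, Inhba, Cyp11a1, Amh, Fshr and Hsd3b1) were listed at 0 in every library. Amhr2 gave the larger part of the sum in every library but the untreated one, and without it the list summed to 47.8 FPKM with H3.3 mRNA, 49.2 FPKM with H3.2 mRNA and 0 in the knockdown, against 16.2 FPKM in the luciferase and 192 FPKM in the untreated library, where Tnfaip6 gave 185 FPKM. Amhr2 itself stood at 429 FPKM with H3.3 mRNA, 527 FPKM with H3.2 mRNA and 1056 FPKM in the knockdown, against 472 and 142 FPKM in the luciferase and untreated libraries. Of 12 fibroblast markers, 9 were listed at 0 in every library, among them Col1a1, Col3a1, Thy1 and Dcn. Fn1 stood at 54.3 FPKM with H3.3 mRNA, 15.1 FPKM with H3.2 mRNA and 16.5 FPKM in the knockdown. It stood at 28.8 FPKM in the luciferase and 0.82 FPKM in the untreated library. Col1a2 and Pdgfra were above 0 with luciferase alone, at 2.48 and 4.23 FPKM. Of 10 keratinocyte markers, 7 were listed at 0 in every library. Among them were Krt5, Krt14 and Krt1, all 3 of which the list of further keratins also holds. Sfn, the stratifin gene, gave most of that list's sum and lay between 258 and 1108 FPKM. The part of such cells in the keratin values was not tested.

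The genes whose values over the 5 libraries lay nearest to those of Krt8, Cdh1 and Dsp were ranked among 11771 genes by the root mean square difference of centred log2(FPKM + 1) values. These 11771 averaged 1 FPKM or more, with clone, model and accession names left out. For Krt8 the nearest were Grtp1 (0.64), Cmbl (0.80) and Cited2 (0.88), each listed at 0 in the knockdown. Nearest to Cdh1 were Tacc2 (0.19), Myo1c (0.26) and Nek7 (0.28), each highest in the luciferase library. For Dsp the nearest were Frmd4b (0.16), Ndrg2 (0.29) and Msn (0.35), each listed at 0 in the knockdown and the untreated library. Such shared traits follow from choosing the genes by their values in the same libraries. The 10 genes did not share 1 pattern: Krt18 lay 3.36 from Krt8, at rank 6200, whereas Pkp2 lay 1.94 from it at rank 126 and Cdh1 2.01 at rank 164.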

How the data were processed

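RNA-seq values of 5 libraries, 1 per group, were used. Per the submitters' processing notes, the authors used TopHat and Cufflinks with mm9, without stated versions, and the deposited values are FPKM. Libraries were Illumina TruSeq, read from 1 end over 51 bases, per the labels' protocols. Reads from overlapping or near-identical genes may be divided between them, and the use of strand is not stated. The deposited FPKM values hold no counts, so the depth is unknown and no interval or detection limit is given.

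Values were compared as log2(FPKM + 1) with Python 3.11.15 and pandas 2.3.3. Differences of at least 4-fold were counted, with 13144 genes averaging 1 FPKM or more as background; 7 of the 10 genes passed that filter, and all 10 were counted. With 1 library per group no test was possible. The counting code was run on simulated data with little scatter, which checked the code and says nothing on the scatter of these libraries. The genes, lists and rules were chosen with earlier results of these data known. From each related list up to 4 genes with the largest difference between the knockdown and the mean of the controls are named (further keratins by mean level), plus 3 genes nearest to Krt8, Cdh1 and Dsp. Fewer are named from the cumulus and keratinocyte lists. Values named outside that rule (catenins, Rock2, adjacent genes, Gdf9, Cdx2, Elf5, Eomes, Col1a2 and Pdgfra) were chosen after they were seen. Dppa3 was named as the embryo marker with the highest mean level. Promoter windows came from RefSeq (GRCm38.p6) for 5 of the 10 genes. The alternatives were other pseudocounts, filters, scalings and folds, and each control alone.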

Additional observations from a re-analysis of the deposited data

How the results depend on the processing

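Of 600 differences for single genes under 10 alternatives, 565 kept their call, 18 no longer passed the threshold and 17 newly passed it. None turned from a call in 1 direction to a call in the other. The 2-fold and 8-fold alternatives used their own threshold and gave 12 of the 17 and 8 of the 18. The filter alternatives cannot change a difference of a single gene, so their 60 results each were fixed. Those of Krt19 and Dsc2, listed at 0 in every library, were fixed too. The 565 thus overstate how stable the calls are. Differences of Jup under the threshold changed sign: the knockdown over luciferase was 0.05 with quantile normalization and 0.07 with median-of-ratios scaling, and H3.3 mRNA over the knockdown was 0.05 after rescaling to a common sum. At 4 genes the knockdown was at least 4-fold lower than each control. This count became 3 with a pseudocount of 10 and with quantile normalization, and 2 at 8-fold (Krt8 and Pkp2). At 2-fold 1 gene, Krt7, was higher than both. Against luciferase alone and untreated alone the lower counts were 5 and 4. At 8-fold the count was 2 for the knockdown over the untreated library, 1 for luciferase over untreated and 3 for H3.3 mRNA over the knockdown. At 2-fold it was 6 for luciferase over untreated, 7 for H3.2 mRNA over the knockdown and 3 for H3.3 over H3.2 mRNA. The share of all genes was counted only at 4-fold on log2(FPKM + 1) of the deposited values. Counts under other folds, pseudocounts or scalings thus have no background. With a pseudocount of 10 it was 3 for H3.3 mRNA over the knockdown, since Krt8, Pkp2 and Dsp no longer passed, and 0 for H3.3 over H3.2 mRNA. The median difference of the knockdown from the luciferase library was -3.75 with a pseudocount of 0.1 and -1.37 with 10. Every knockdown library lay below both controls at 3 genes, not 4, with quantile normalization and with median-of-ratios scaling, a check added after the data were seen. The median of all genes between the H3.2 mRNA and knockdown libraries was 0.15, and 0.60 after rescaling to a common sum. No paired analysis was possible because each group has 1 library. The unknown depth limits every value listed at 0, and no replicate shows how far 2 libraries of 1 group would lie apart.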
